A study of Mus musculus with 12 samples.

Results

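A set of 10 subunit genes of the voltage-gated calcium channels was followed in dorsal root ganglia of adult mice after deletion of Prdm12. The members are Cacna1a, Cacna1b, Cacna1c, Cacna1e, Cacna1g, Cacna1h and Cacna1i, which encode 7 pore-forming α1 subunits, and Cacna2d1, Cacna2d2 and Cacna2d3, which encode 3 auxiliary α2δ subunits. They were taken by name, and all 10 were found among the 55416 gene identifiers counted and among the 16384 genes that passed a filter on low counts. Prdm12 encodes a zinc finger protein of the PRDM family that nociceptors, the neurons that sense harmful stimuli, need to form in the embryo, and the question was what its loss changes once the ganglion is mature. Poly(A) RNA was sequenced in 6 inducible knockout (iKO) and 6 control libraries from mice labelled C57Bl6. The iKO animals were Rosa26Cre ERT2; Fl/Fl, with a tamoxifen-activated Cre at the Rosa26 locus, which is active in most cell types and not only in neurons, and 2 floxed Prdm12 alleles, and were studied 1 month after tamoxifen. Controls 1 to 4 also received tamoxifen. Control 1 had Cre and 1 floxed allele, controls 2 and 3 had 1 floxed allele without Cre, and control 4 had Cre and 0 floxed alleles. Controls 5 and 6 shared the iKO genotype but were given corn oil. The libraries iKO 1 to 3 and controls 1 and 2 were from females, and the other 7 were from males. Whether each library comes from 1 animal is not in the labels, so the p-values rest on library-to-library spread. Among libraries alike in sex, genotype and agent, such as iKO 1 to 3, this spread may be technical.

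Voltage-gated calcium channels open when a neuron depolarises and let calcium in, which triggers transmitter release, shapes firing and signals to the nucleus. The α1 subunit forms the pore and sets the channel type, a β subunit in the cytoplasm and an α2δ subunit outside the membrane bring the channel to the surface and tune it. In sensory neurons the N-type channel carries much of the calcium current at the central terminals and is blocked by the analgesic ziconotide, T-type channels set excitability near rest, and the α2δ-1 and α2δ-2 subunits bind gabapentin and pregabalin.

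The tissue and the deletion were checked first. Prdm12 had a lowest level of 18.6, a median of 23.9 and a highest of 25.3 CPM (counts scaled to a common library size) in iKO libraries, against 64.5, 123 and 147 CPM in controls, the lowest control being control 6. The mean in iKO libraries was 19.9% of the control mean, and the groups did not overlap. The labels do not name the floxed exons. Library totals ran from 13943784 to 20377766 counts. The summed level of 11 sensory neuron genes was 10625 to 15437 CPM in iKO libraries and 11474 to 15794 CPM in controls, all 11 being detected, while 6 spinal cord genes summed to 1.4 to 5.0 CPM and 0.9 to 3.1 CPM. The library iKO 1 stood apart, with the lowest sensory neuron sum and the highest sums of 6 fibroblast genes (3173 CPM, against 1211 to 1401 CPM in the other iKO libraries and 1275 to 1796 CPM in controls) and 7 macrophage genes (289 CPM, against 102 to 122 CPM in the other iKO libraries and 108 to 170 CPM in controls). In whole ganglia a lower level can come from fewer cells of a type or from less RNA per cell, and these cannot be told apart.

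The ganglion held strongly and weakly expressed channel genes side by side. Levels were compared between genes as CPM per kb of exon, taking exon lengths from GENCODE M21, which describes a build before the one counted on. Cacna2d1, the gene of α2δ-1, and Cacna1b, the N-type pore, led with 26.5 and 25.2 CPM per kb in iKO libraries and 27.6 and 25.4 CPM per kb in controls (means, n = 6 each). The ranges of this pair overlapped, and Cacna2d1 was the higher in 4 of 6 iKO and 4 of 6 control libraries. Cacna1a, the P/Q-type pore found at many fast synapses, followed at 11.4 and 10.9 CPM per kb in iKO and control libraries. Next came Cacna2d2, the α2δ-2 gene, with 8.80 CPM per kb in iKO libraries and 8.99 CPM per kb in controls, and Cacna1h, the main T-type pore of sensory neurons, with 10.2 CPM per kb in iKO libraries and 8.94 CPM per kb in controls. Their control ranges overlapped, and Cacna2d2 was the higher in 0 of 6 iKO and 4 of 6 control libraries. Cacna2d3, the α2δ-3 gene, lay at 7.04 and 6.86 CPM per kb in iKO and control libraries, and Cacna1c, an L-type pore, at 6.30 and 6.80 CPM per kb, with overlapping ranges.

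The remaining 3 pores were scarce. Cacna1i, another T-type pore, had 1.87 CPM per kb in iKO libraries and 1.82 CPM per kb in controls. Cacna1e, the R-type pore, had 1.37 and 1.56 CPM per kb, and the ranges of this pair overlapped in both groups. Cacna1g, the remaining T-type pore, was lowest with 0.469 CPM per kb in iKO libraries and 0.32 CPM per kb in controls, below Cacna1e in all 12 libraries. The order depended on the length used. Cacna1c and Cacna1e have exon unions of 21.2 and 25.2 kb but coding sequences of only 6.67 and 6.82 kb, and per kb of coding sequence Cacna1c had rank 3 in place of 7 and Cacna1a rank 6 in place of 3. Cacna2d1 and Cacna1b held ranks 1 and 2 on either scale, and Cacna1g last.

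**Figure D1:**
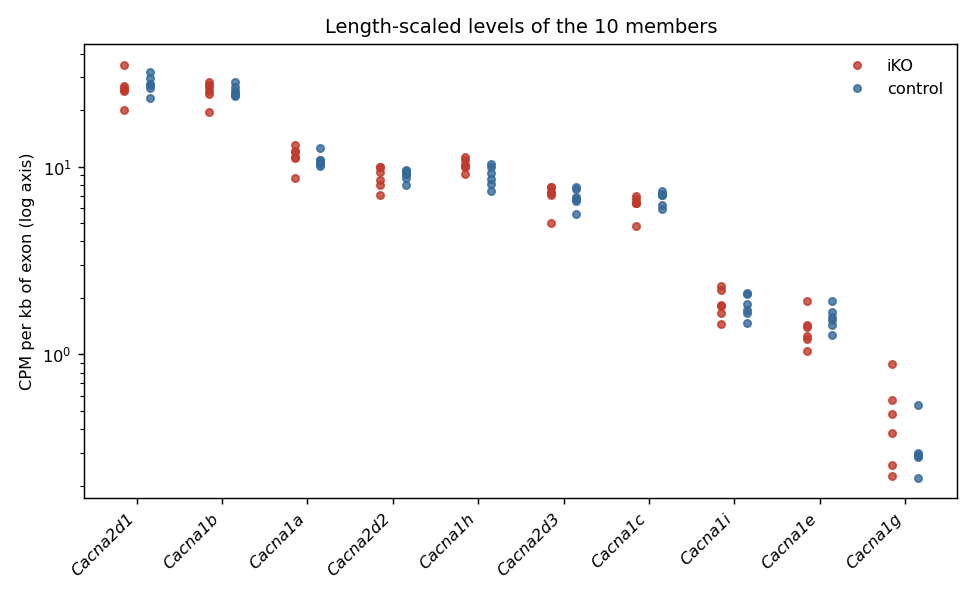
Level of each member in every library as CPM per kb of exon (log axis), with iKO libraries in red to the left of control libraries in blue. Cacna2d1 and Cacna1b lie together near the top, at about 26.5 and 25.2 CPM per kb in iKO libraries, and Cacna1g lies below all others.

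Within each channel family the make-up was close in both groups. Among the T-type genes, Cacna1h made up 81.4 ± 2.38% of the length-scaled level in iKO libraries and 80.6 ± 1.98% in controls (SD, n = 6 each). Cacna1i made up 14.9 ± 2.73% and 16.5 ± 1.74%, and Cacna1g 3.68 ± 1.86% and 2.91 ± 1.03%. Among Cacna1a, Cacna1b and Cacna1e, the high-voltage pores of nerve terminals, Cacna1b held 66.4 ± 1.04% in iKO libraries and 67.1 ± 1.37% in controls. Among the α2δ genes Cacna2d1 held 62.4 ± 3.49% in iKO libraries and 63.4 ± 3.27% in controls. The group ranges overlapped for every one of these shares.

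No member passed the test between iKO and control ganglia. The test was the quasi-likelihood F-test of edgeR, with sex as a term and p adjusted over all genes after Benjamini and Hochberg. An adjusted p under 0.05 was reached by 0 of 10 members, where 0.946% of all genes tested reached it. DESeq2 also called 0 of 10, where it called 1.79% of all genes, and limma-voom called 0 of 10, where it called 157 of 16384 genes. At an unadjusted p under 0.05 there was 1 of 10, where 9.52% of all genes passed. In 0 of 10 members did the groups separate without overlap, against 1.54% of all genes. The median absolute log2 fold change was 0.07 over the members and 0.09 over all genes. Counts behind each value were large for most members, from 220 upward in every library except for Cacna1g (34 to 169 counts). In the edgeR fit to all controls, the 95% intervals of the fold change lay between 0.763 and 1.28 for the 9 members other than Cacna1g. For Cacna1g the interval ran from 0.819 to 2.25. These bounds hold for that fit only, since the controls differ in genotype and agent. With tamoxifen-injected controls alone, Cacna1h and Cacna1e had larger absolute log2 fold changes, given below. No intervals were computed for that fit, so larger folds are not excluded.

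**Figure D2:**
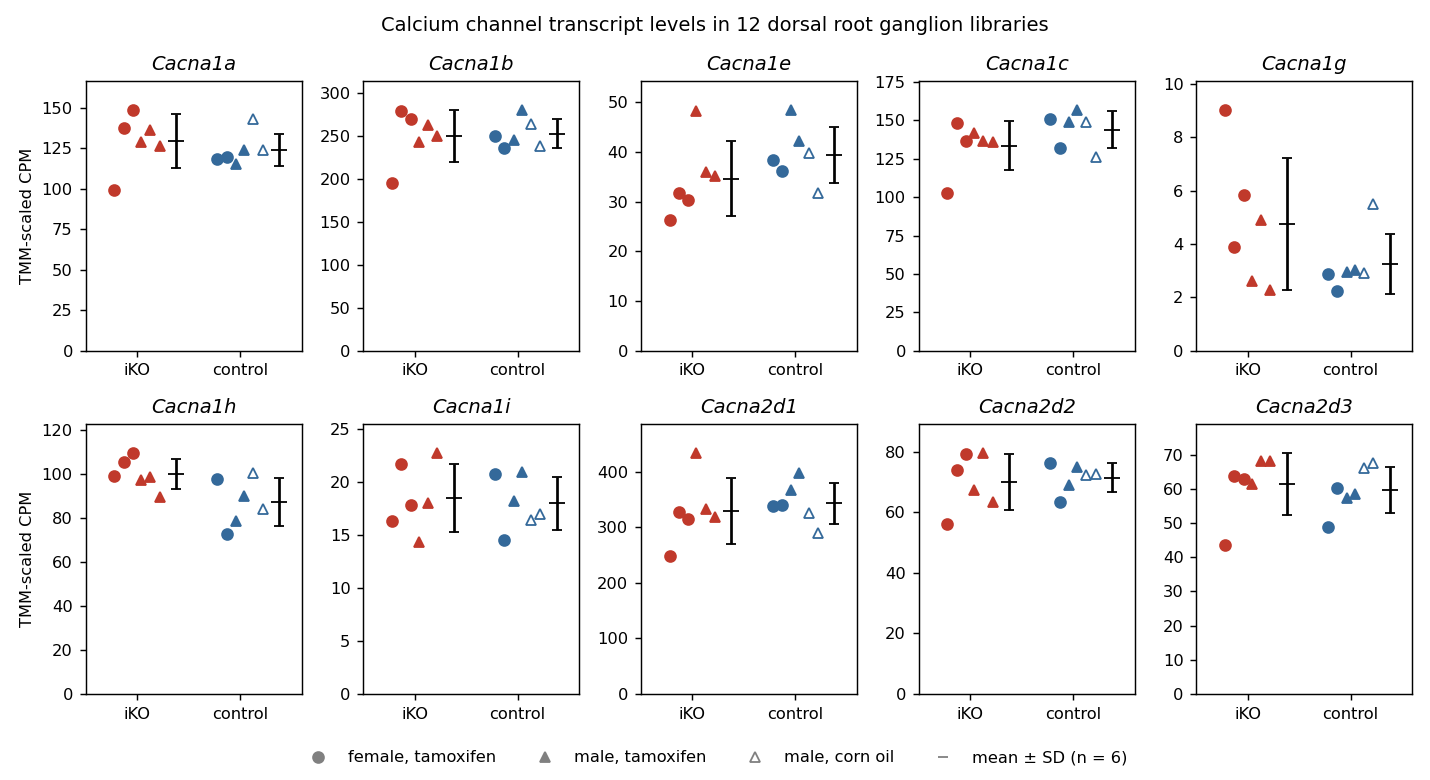
TMM-scaled CPM of the 10 members in each library, with iKO libraries (red) left of controls (blue), circles for females, triangles for males, open symbols for corn oil, and black bars for mean ± SD (n = 6). The groups overlap in every panel, and iKO 1 (the leftmost red point) is the lowest iKO library for 7 members.

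None of the presynaptic pores passed the test between the groups. Cacna1b had a lowest level of 195, a median of 257 and a highest of 279 CPM in iKO libraries, against 236, 248 and 280 CPM in controls. Apart from iKO 1, the iKO libraries lay within 243 to 279 CPM, inside the control range on both sides. On the log2 scale the difference was -0.005 ± 0.08 (SE), with a 95% interval from -0.18 to 0.17. Cacna1a had 99.3, 133 and 149 CPM in iKO libraries as lowest, median and highest, against 115, 122 and 143 CPM in controls. Here 5 of 6 iKO libraries were above the control median, and the log2 fold change was 0.07 ± 0.09 (SE). Cacna1e, whose R-type current helps drive release and repetitive firing, had 26.4, 33.4 and 48.3 CPM in iKO libraries against 31.8, 39.0 and 48.5 CPM in controls. Only 1 of 6 iKO libraries, iKO 4, was above the control median of Cacna1e, and the log2 fold change was -0.15 ± 0.11 (SE). With single libraries left out, the ends of its range were -0.25 without iKO 4 and -0.10 without control 1. By edgeR the unadjusted p was 0.019 without iKO 4 (adjusted p = 0.266) and 0.436 without control 1 (adjusted p = 0.928).

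The L-type pore Cacna1c, which couples activity to gene transcription in neurons and is also the main calcium pore of smooth muscle, had 103, 136 and 148 CPM in iKO libraries (lowest, median and highest) against 126, 149 and 157 CPM in controls. All 6 iKO libraries were below the control median, but 5 of them lay inside the control range. This gave a log2 fold change of -0.10 ± 0.08 (SE), with an interval from -0.28 to 0.08, and -0.04 without iKO 1. A summed level of 7 mural cell genes (pericytes and smooth muscle) was 326 to 348 CPM in iKO 2 to 6, below every control (361 to 427 CPM), and 433 CPM in iKO 1, where Cacna1c was lowest. Rgs5 gave most of this sum, with 244 to 274 CPM in iKO libraries and 279 to 346 CPM in controls. Over all libraries 4 of the 7 genes had a positive log2 fold change, and the median was 0.01. The sum of 6 endothelial genes was 77.6 to 87.8 CPM in iKO 2 to 6, below every control (95.9 to 112 CPM), and 187 CPM in iKO 1. The part of these cells in the Cacna1c level was not tested.

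The T-type pore Cacna1h had the smallest p of the members (0.0365, unadjusted, edgeR). Its lowest, median and highest levels were 89.7, 98.9 and 109 CPM in iKO libraries, against 72.5, 87.0 and 101 CPM in controls. All 6 iKO libraries lay above the control median, and 3 controls, numbers 1, 4 and 5, reached into the iKO range. The log2 fold change was 0.19 ± 0.08 (SE), with a 95% interval from 0.01 to 0.36, and edgeR's adjusted p was 0.481. With single libraries left out it ran from 0.115 without control 2 (unadjusted p = 0.12, edgeR) to 0.24 without control 1. Beside Cacna1h, the sum of 5 genes of C-fibre touch neurons was 1411 to 1596 CPM in iKO 2 to 6, above every control (1121 to 1342 CPM), and 1244 CPM in iKO 1. Piezo2, which gave most of this sum, had 764 to 1107 CPM in iKO libraries and 747 to 873 CPM in controls. In Th (120 to 156 and 114 to 167 CPM) and Slc17a8 (21.6 to 29.7 and 19.4 to 31.3 CPM) the groups also overlapped. Of the 5 genes 3 had a positive log2 fold change, and 0 were called. Gfra2, 1 of the 5, was also on the list of nonpeptidergic nociceptor genes, so the sum is not of C-fibre touch neurons alone. The sum of 4 cold-sensing neuron genes was 52.6 to 92.1 CPM in iKO libraries and 92.3 to 127 CPM in controls, without overlap. The part of these cells in the Cacna1h level was not tested. In absolute log2 fold change 79.7% of all genes tested were below Cacna1h. Over 0.2 in absolute value there was 1 of 10 members, Cacna1g, where 18.3% of all genes were, and over 0.5 there were 0 of 10, where 2.53% of all genes were. Cacna1i, whose channel inactivates more slowly than the other T-type channels, had 14.3, 17.9 and 22.7 CPM in iKO libraries and 14.5, 17.6 and 20.9 CPM in controls (0.04 ± 0.12 SE on the log2 scale).

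Cacna1g varied most. Its level was 9.02, 3.88, 5.82, 2.62, 4.90 and 2.27 CPM in iKO 1 to 6, against 2.89, 2.24, 2.95, 3.03, 2.90 and 5.48 CPM in controls 1 to 6. The coefficient of variation was 52.3% in iKO libraries and 34.9% in controls, and for the other members it was between 6.65% and 21.7%. Its fitted log2 fold change was 0.44 ± 0.34 (SE). With single libraries left out it ran from 0.23 without control 2 to 0.665 without control 6, and it was 0.26 ± 0.28 (SE) without iKO 1, the library with the highest fibroblast and macrophage sums. Control 6, the highest control for Cacna1g, had a summed level of 6 skeletal muscle genes of 420 CPM, against 16.7 to 92.1 CPM in iKO libraries and 18.4 to 85.2 CPM in the other controls. The part of these tissues in the Cacna1g level was not tested.

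None of the α2δ genes passed the test either. Cacna2d1, which is raised after nerve injury in rodents, had a lowest level of 248, a median of 323 and a highest of 433 CPM in iKO libraries, against 289, 340 and 397 CPM in controls. Only iKO 4, at 433 CPM, was above the control median, and it was above every control. Its log2 fold change was -0.04 ± 0.10 (SE). Cacna2d2 had 56.1, 70.7 and 79.5 CPM in iKO libraries against 63.2, 72.6 and 76.4 CPM in controls, with 3 of 6 iKO libraries above the control median (-0.03 ± 0.09 SE on the log2 scale). Cacna2d3, which has been tied to heat pain in flies and mice, had 43.6, 63.3 and 68.3 CPM in iKO libraries against 48.8, 59.3 and 67.7 CPM in controls, with 5 of 6 iKO libraries above the control median (0.07 ± 0.09 SE).

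**Figure D3:**
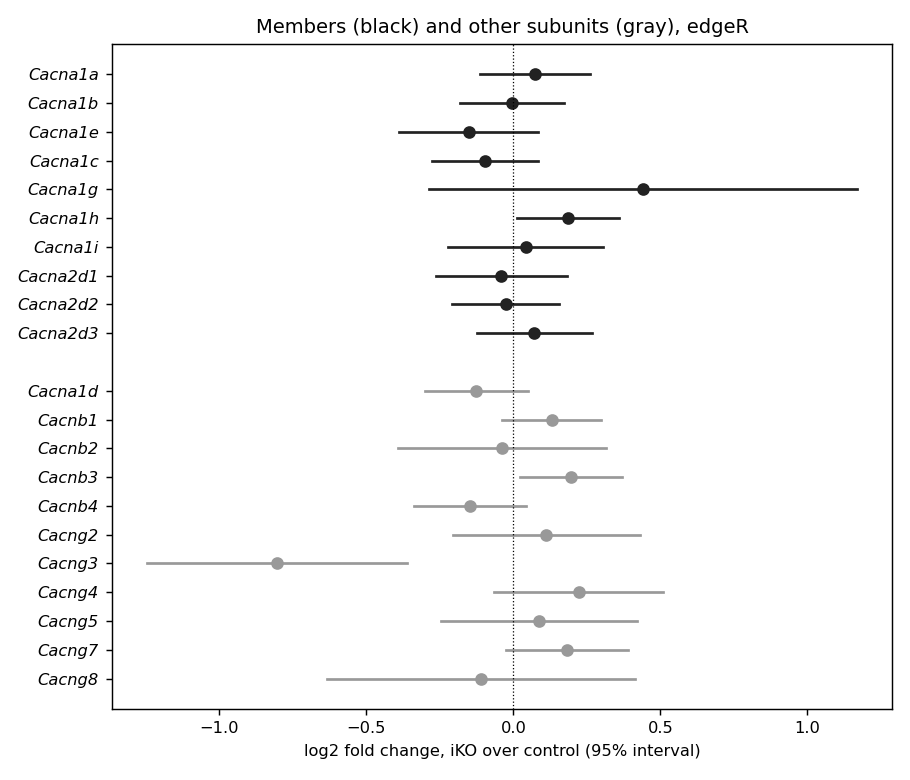
Log2 fold change of iKO over control with 95% intervals for the 10 members (black) and the 11 other calcium channel subunit genes that passed the count filter (gray). The interval of Cacna1h starts just above 0, that of Cacna1g is the widest among the members, and Cacng3 lies lowest at -0.80.

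The controls were of several kinds, and members were compared between them. Among the controls, Cacna2d1 had 339, 340, 367 and 397 CPM in the 4 tamoxifen-injected libraries, against 326 and 289 CPM in the 2 corn-oil libraries, with no overlap. The log2 fold change of tamoxifen over corn oil, with sex as a term, was 0.31 ± 0.08 (SE), and edgeR's adjusted p was 0.217. DESeq2 called Cacna2d1 in this comparison (adjusted p = 0.033), where it called 1.15% of all genes, and edgeR called it when low-count genes were kept (adjusted p = 0.0222), a fit that called 2.02% of all genes. Cacna1e had 38.3, 36.1, 48.5 and 42.3 CPM in tamoxifen-injected controls and 39.7 and 31.8 CPM in corn-oil controls, a log2 fold change of 0.35 ± 0.12 (SE) with an edgeR adjusted p of 0.269. It was 0.18 without control 6. By edgeR 0 of 10 members were called, as were 0% of all genes, and 2 of 10, this pair, had an unadjusted p under 0.05, where 13.3% of all genes did. Cacna1a also showed no overlap, but was lower with tamoxifen (115 to 123.8 CPM) than with corn oil (124.0 and 143 CPM). The same held for Cacna2d3 (48.8 to 60.3 CPM with tamoxifen, against 66.1 and 67.7 CPM with corn oil). How many of all genes separated in this way was not counted. With 4 against 2 libraries such separation can readily arise by chance, so it is given as a description and not as a result about these members. The corn-oil controls differ from the others in agent, in genotype and in their replicate numbers, so these cannot be told apart. They are also male, while controls 1 and 2 are female. The CPM ranges, here and in the marker sums that follow, carry no sex term.

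Beside this, 6 peptidergic nociceptor genes summed to 2095 to 2445 CPM in tamoxifen-injected controls and 2034 to 2086 CPM in corn-oil controls, and 12 genes of large-diameter neurons summed to 2627 to 3622 CPM in tamoxifen-injected controls and 3844 to 4249 CPM in corn-oil controls. The 11 sensory neuron genes summed to 11474 to 13410 CPM in tamoxifen-injected controls and 13844 to 15794 CPM in corn-oil controls. Gene by gene, 4 of these 11 had a positive log2 fold change of tamoxifen over corn oil, and the median was -0.05. By edgeR 0 of the 11 had an unadjusted p under 0.05. For 7 genes of itch neurons the sums were 209 to 271 CPM in tamoxifen-injected controls and 187 to 195 CPM in corn-oil controls, and for 8 genes of myelinating Schwann cells 3671 to 4124 CPM in tamoxifen-injected controls and 4499 to 4701 CPM in corn-oil controls. These 5 of 15 marker sums did not overlap between tamoxifen-injected and corn-oil controls, and their part in the values of Cacna2d1 and Cacna1e was not tested.

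When iKO libraries were set against the 4 tamoxifen-injected controls alone, 0 of 10 members were called, where 1.41% of all genes were. The log2 fold change was 0.25 ± 0.08 (SE) for Cacna1h, the lowest adjusted p of any member in any fit of iKO against control (0.167, edgeR). It was -0.25 ± 0.10 (SE) for Cacna1e, 0.72 ± 0.33 for Cacna1g and -0.13 ± 0.10 for Cacna2d1. Within replicates 1 to 4 the value for Cacna1h was 0.28 ± 0.10 (SE). Within replicates 5 and 6, all male, with corn-oil controls, it was 0.03 ± 0.09 (SE). Cacna1g had 0.80 ± 0.37 (SE) within replicates 1 to 4 and -0.24 ± 0.45 within replicates 5 and 6, and Cacna1i had -0.09 ± 0.16 and 0.29 ± 0.14. The difference between these sets of libraries was not tested.

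Sex was examined in the same libraries. With edgeR 0 of 10 members were called between males and females, where 0.0549% of all genes were. DESeq2 also called 0 of 10, where it called 15 of 16384 genes. Members with an unadjusted p under 0.05 numbered 2 of 10, where 4.11% of all genes passed. Cacna1e had 31.8, 39.7 and 48.5 CPM in 7 males as lowest, median and highest, against 26.4, 31.7 and 38.3 CPM in 5 females. The log2 fold change of male over female was 0.29 ± 0.11 (SE) with an edgeR adjusted p of 0.904. It was 0.24 without iKO 1 and 0.19 without iKO 4. Cacna2d3 had 57.4, 66.1 and 68.3 CPM in males against 43.6, 60.3 and 63.8 CPM in females, a log2 fold change of 0.21 ± 0.09 (SE), which was 0.14 without iKO 1.

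The effect of the knockout was also compared between the sexes. For Cacna1g it differed by -1.42 ± 0.55 (SE) on the log2 scale, male minus female, with an edgeR adjusted p of 0.945. Its level was 2.62, 4.90 and 2.27 CPM in iKO males against 2.95, 3.03, 2.90 and 5.48 CPM in control males, and 9.02, 3.88 and 5.82 CPM in iKO females against 2.89 and 2.24 CPM in control females. The female iKO libraries lay above both female controls, and the male groups overlapped. The highest female value was of iKO 1, the library with the highest fibroblast and macrophage sums. The highest male value was of control 6, the library with the highest skeletal muscle sum. The part of these tissues in the difference was not tested. By edgeR 0 of 10 members were called for this difference (0% of all genes), and 1 of 10 had an unadjusted p under 0.05 (3.59% of all genes). DESeq2 called 0 of 10, where it called 2 of 16384 genes. With low-count genes kept in the fit, edgeR called Cacna1g (adjusted p = 0.00899), and that fit called 0.752% of all genes. Of its 270 called genes 252 had a negative difference, as Cacna1g had.

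Across the 12 libraries the members did not vary as a block. The library iKO 1 was the lowest of 12 for 7 members and the highest for Cacna1g. Members were then set against the summed levels of 15 marker lists, 150 relations in all, with permutation tests over 100000 relabellings. The most abundant genes of a list weigh most in its sum. In the sensory neuron sum Nefm had 1510 to 3081 CPM in iKO libraries and 1645 to 3401 CPM in controls. In the large-diameter sum Nefh had 1048 to 2154 CPM in iKO libraries and 1263 to 2611 CPM in controls. An adjusted p under 0.05 was reached by 18 of the 150 for Pearson's r, and by 4 of these also for Spearman's rho. Cacna1a followed the 11 sensory neuron genes most closely (Pearson r = 0.933, permutation p = 1e-05, the smallest that can be given, adjusted p = 0.00075, Spearman rho = 0.965, permutation p = 2e-05, adjusted p = 0.003). Without iKO 1 and control 1, the libraries farthest from the median, r was 0.940, and within replicates 1 to 4 it was 0.936. By both measures Cacna1a also varied opposite to the fibroblast sum (r = -0.909, and -0.852 without iKO 1) and together with the large-diameter sum (r = 0.848, and 0.723 without iKO 1). The remaining relation that passed by both measures was of Cacna2d3. It followed the 12 genes of large-diameter neurons, which carry touch and limb position (r = 0.959, permutation p = 1e-05, adjusted p = 0.00075, rho = 0.860, permutation p = 0.00062, adjusted p = 0.0232). Without the same pair of libraries r was 0.848, and within replicates 1 to 4 it was 0.962. By Pearson's r alone Cacna2d3 also passed with the sensory neuron sum (r = 0.907, permutation test, adjusted p = 0.00825). It passed opposite to the fibroblast sum as well (r = -0.830, permutation test, adjusted p = 0.0306). Without iKO 1 these r were 0.830 and -0.583. Whether Cacna2d3 follows large-diameter neurons in particular was not tested.

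Relations to nociceptor genes passed by Pearson's r, while Spearman's rho missed the threshold after adjustment. Cacna2d1 was set against the 6 peptidergic nociceptor genes (r = 0.864, permutation p = 0.00047, adjusted p = 0.0103, rho = 0.783, permutation p = 0.00418, adjusted p = 0.0873), and r was 0.734 without iKO 1 and control 4 and 0.876 within replicates 1 to 4. Cacna1c was set against the 8 nonpeptidergic nociceptor genes (r = 0.894, permutation p = 0.00051, adjusted p = 0.0103, rho = 0.783, permutation p = 0.00378, adjusted p = 0.0873). Without iKO 1 and control 4 r was 0.644, and within replicates 1 to 4 it was 0.922. By Pearson's r alone Cacna1c and Cacna1e also passed with the peptidergic genes (r = 0.832 and 0.780) and Cacna1b with the nonpeptidergic and sensory neuron genes (r = 0.799 and 0.749, which were 0.496 and 0.494 without iKO 1). Cacna1h and the sum of C-fibre touch neuron genes did not reach the threshold (r = 0.676, permutation p = 0.016, adjusted p = 0.093, rho = 0.510, permutation p = 0.0943, adjusted p = 0.416). There r was 0.745 without iKO 1 and 0.390 without iKO 2 and control 2. Replicates 5 and 6 hold 4 libraries, too few for a value. Among the 45 pairs of members, Cacna1e and Cacna2d1 varied most alike (r = 0.891, permutation p = 0.00013, adjusted p = 0.00585, rho = 0.853, permutation p = 0.0007, adjusted p = 0.0315). Without iKO 1 and control 3 r was 0.879, and within replicates 1 to 4 it was 0.906. The points of all these relations share library size scaling and tissue make-up, whose part was not tested.

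**Figure D4:**
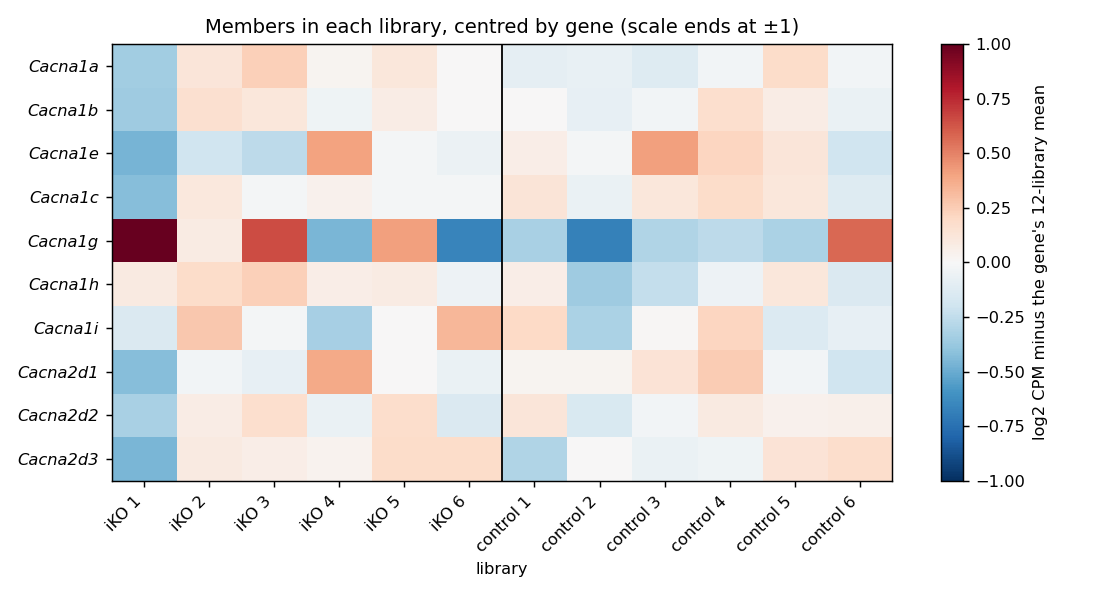
Log2 CPM of each member in each library minus the member's mean over 12 libraries, iKO libraries to the left of the line and controls to the right, with the colour scale ending at ±1. The first column, iKO 1, is lowest for 7 members and highest for Cacna1g.

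**Figure D5:**
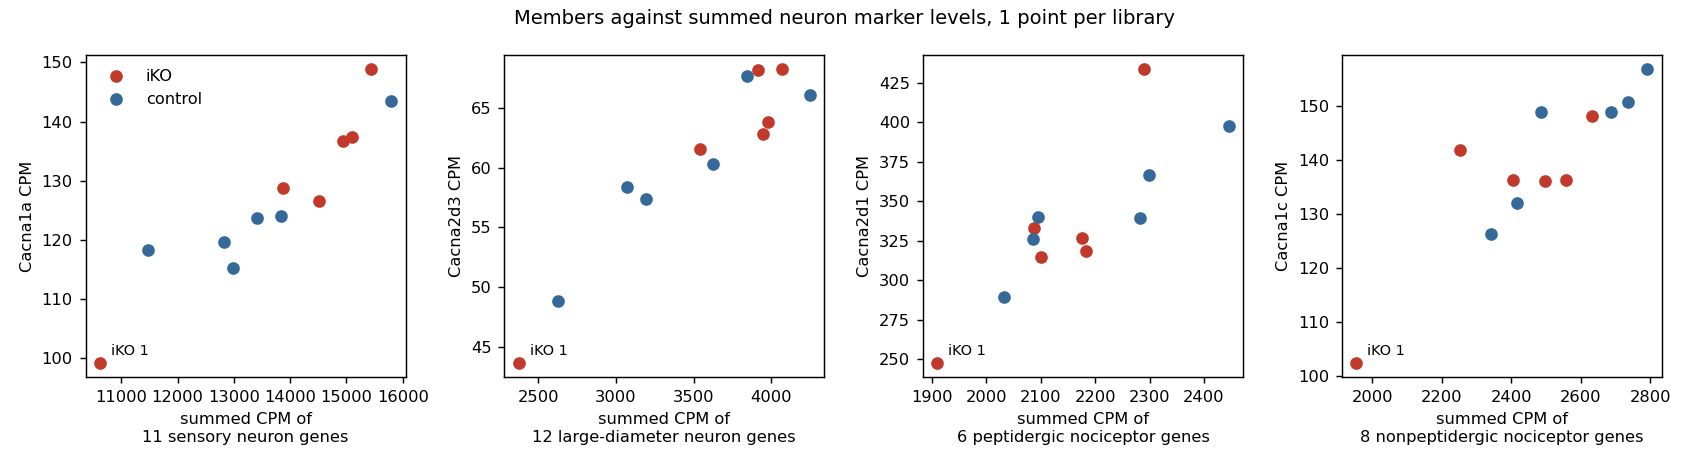
CPM of 4 members against the summed CPM of a neuron marker list, 1 point per library, iKO in red and control in blue. The points of Cacna1a and Cacna2d3 rise along a line (r = 0.933 and 0.959 on the log2 scale), and iKO 1 lies at the lower left of each panel.

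For each member the gene with the most similar log2 CPM over the 12 libraries was sought among 11995 named genes. Cacna2d3 was most like Synj1, the gene of the synaptic vesicle phosphatase synaptojanin (r = 0.978), Cacna1b most like Urb2 (0.975), Cacna1c most like Serinc5 (0.966) and Cacna1a most like Zfyve28 (0.966). Cacna1g was most like Dnm2, the gene of the widely expressed membrane fission protein dynamin 2 (0.949), Cacna1h most like Fchsd1 (0.945), and Cacna2d1 most like Fam169a (0.944). Cacna1e was most like Optn, the autophagy receptor gene (0.941), Cacna2d2 most like the splicing factor gene Prpf6 (0.913), and Cacna1i most like Cyp4f39 (0.878). Each is the highest of many correlations over 12 libraries and is given as a description.

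The other 16 subunit genes of these channels were examined beside the members. Of them 11 passed the count filter and edgeR called 0 between iKO and control, 2 having an unadjusted p under 0.05. The median log2 fold change was 0.09, against 0.00 over all genes. Cacng3, a γ subunit of the family that also escorts AMPA receptors, had the lowest value, with 0.565, 0.888 and 1.55 CPM in iKO libraries (lowest, median and highest) against 1.09, 1.53 and 2.07 CPM in controls. Its log2 fold change was -0.80 ± 0.21 (SE, edgeR adjusted p = 0.107), and it rests on 9 to 33 counts per library. Cacnb3, a β subunit abundant in sensory neurons, had 242, 277 and 316 CPM in iKO libraries against 214, 240 and 269 CPM in controls (0.20 ± 0.08 SE on the log2 scale, adjusted p = 0.457 by edgeR). All 6 iKO libraries were above the control median of Cacnb3.

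The remaining β subunits were at 0.13 ± 0.08 (SE) for Cacnb1, -0.04 ± 0.17 for Cacnb2 and -0.15 ± 0.09 for Cacnb4 on the log2 scale. The L-type pore Cacna1d, which opens at lower voltages than Cacna1c, had -0.13 ± 0.08 (SE), with all 6 iKO libraries at or below 18.6 CPM and below the control median of 19.1 CPM. The γ genes Cacng2, Cacng4, Cacng5, Cacng7 and Cacng8 had log2 fold changes of 0.11 ± 0.15, 0.22 ± 0.13, 0.09 ± 0.15, 0.18 ± 0.10 and -0.11 ± 0.24 (SE). The 5 genes under the filter, Cacna1f, Cacna1s, Cacna2d4, Cacng1 and Cacng6, had at most 20 counts in any library. Cacna1s and Cacng1, subunits of the skeletal muscle channel, were highest in control 6 at 1.23 and 0.924 CPM, the library with the highest muscle gene sum.

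Partners of the channels were also counted by list. Of 22 tested genes for regulators of the channels (24 listed), 0 were called by edgeR, 3 had an unadjusted p under 0.05 and the median log2 fold change was 0.06. Akap5, which anchors kinases and calcineurin at L-type channels, had the smallest p, with 2.59 ± 0.267 CPM in iKO libraries and 3.73 ± 0.787 CPM in controls (SD, n = 6 each, log2 fold change -0.55 ± 0.15 SE). All 6 iKO libraries lay below the control median of Akap5. Of 17 genes of the presynaptic release site 0 were called, 1 had an unadjusted p under 0.05 and the median was 0.01. Rims2, whose protein tethers channels at the active zone, had 62.5 ± 8.15 CPM in iKO libraries and 74.4 ± 5.40 CPM in controls (-0.22 ± 0.07 SE), with all 6 iKO libraries below the control median.

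Of 14 genes for calcium extrusion and buffering 0 were called, 3 had an unadjusted p under 0.05 and the median log2 fold change was 0.01. Slc8a2, a sodium-calcium exchanger, came closest of these lists to the threshold, with 6.90 ± 1.34 CPM in iKO libraries and 4.33 ± 1.04 CPM in controls (SD, n = 6 each, 0.71 ± 0.18 SE, edgeR adjusted p = 0.0939). Of 14 genes for stores and store-operated entry 0 were called, 1 had an unadjusted p under 0.05 and the median was 0.05. Stim2, a calcium sensor of the endoplasmic reticulum, had 32.2 ± 1.43 CPM in iKO libraries and 29.4 ± 0.823 CPM in controls (0.14 ± 0.05 SE). Of 6 genes for thrombospondins, which bind α2δ-1, and related proteins 0 were called and 0 had an unadjusted p under 0.05. The median was 0.12, and Lrp1, a receptor of thrombospondins, had the smallest p at 0.18 ± 0.11 (SE).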

How the data were processed

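The authors deposited gene-level read counts, not normalized, as 1 table for each of 12 libraries. Per the labels' protocols, a non-stranded TruSeq kit was used. The tools bcl2fastq 2.20.0.422, STAR 2.7.8a, featureCounts 2.0.1 and GRCm39 are listed per the submitters' processing notes. Which annotation was counted, and how, is not given in the sources used here. Symbols and exon lengths came from GENCODE M21, on an older build, by gene identifier (52135 of 55416 matched, 94.1%), so no positions are given. Without strand, reads of overlapping antisense genes cannot be told apart. Exon overlap was 3.81% for Cacna1a, 1.62% for Cacna1h and 1.03% for Cacna2d2, with partners at 1.44 CPM or less, and 0 for the other members. At most 2.5% of the 50-base words in any member's transcripts occur in another gene.

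Counts were scaled by TMM and filtered with filterByExpr, and 16384 genes were tested in edgeR 4.0.16 (R 4.3.3) by the robust quasi-likelihood test, sex beside group, 9 residual degrees of freedom, with Benjamini-Hochberg adjustment over all genes at 0.05. The common biological coefficient of variation was 12.8%. Controls alone (tamoxifen against corn oil) were fitted with sex as a term. A standard error is the absolute log2 fold change over the root of F. CPM are counts over TMM-scaled totals, and log2 CPM carry a prior count of 2. DESeq2 1.42.0, limma-voom (limma 3.58.1), other scaling, no filter, other terms and left-out libraries were alternatives. The text names all members, the other subunits, and from each partner list the called genes or the one with the smallest p. Members, the 6 partner lists, the 15 marker lists and the tests were chosen with earlier results of these data known.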

Additional observations from a re-analysis of the deposited data

Results flagged for a closer look

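Within groups of 6 libraries, 4 values of members stood far from the rest, by the gap to the nearest other library as a part of the group's log2 CPM range. Chance flags about 1 in 20 groups, and 20 groups were checked. In iKO 1 the level of Cacna1c (103 CPM, gap 0.768 of the range) and of Cacna2d3 (43.6 CPM, gap 0.771) was the lowest of the iKO libraries. Without iKO 1 the log2 fold changes were -0.04 for Cacna1c and 0.13 for Cacna2d3. In control 5 the level of Cacna1a was the highest of the controls (143 CPM, gap 0.665), and in control 6 that of Cacna1g was (5.48 CPM, gap 0.665). Control 5 also had the highest sum of sensory neuron genes (15794 CPM), and control 6 the highest sum of skeletal muscle genes (420 CPM). The part of these in the values was not tested.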

How the results depend on the processing

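For iKO against control, 0 of 10 members were called in every fit run (lowest adjusted p 0.167). Of 240 alternative log2 fold changes 219 kept their direction and 21 did not, in 6 members. The values on the other side of 0 were -0.0069 for Cacna1a with the replicate block, and -0.0199 for Cacna1a, 0.0326 for Cacna1b, -0.24 for Cacna1g and 0.0849 for Cacna2d1 within replicates 5 and 6. Cacna1b had 0.012 without the filter, Cacna1i had -0.0937 within replicates 1 to 4, and without both iKO 1 and control 6, chosen after seeing the data, Cacna1b had 0.039 and Cacna2d2 0.0361. Leaving out each library in turn gave -0.0346 to 0.0498 for Cacna1b, -0.0483 to 0.13 for Cacna1i, -0.13 to 0.0156 for Cacna2d1 and -0.0649 to 0.0256 for Cacna2d2. The cause was not tested.

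Called genes numbered 155. They were 253 without the filter, 294 by DESeq2, 79 with the replicate block, 161 with the block in place of sex, 235 with tamoxifen-injected controls only, 35 within replicates 1 to 4, 82 within replicates 5 and 6, 341 without iKO 1 and control 6, and 92 to 364 with each library left out. Shared numbers were not taken as pairs in the main fit. Between libraries of the same number r was -0.15 to 0.22, after removing group means but not sex. It was over 0.1 in 3 of 6 pairs, and 3 of 6 iKO libraries were most like the control of their own number. Whether the numbers pair the libraries was not tested. Between the sexes 9 genes were called, 16 without the filter, 15 by DESeq2 and 8 to 11 with a library left out. For the interaction 0 were called, 270 without the filter (with 1 member, Cacna1g), 2 by DESeq2 and 0 to 1 with a library left out. For tamoxifen against corn oil 0 were called, 659 without the filter and 193 by DESeq2 (1 member each, Cacna2d1), and 0 to 18 with a library left out. Where a fit left 1 corn-oil control, it was assumed to vary like the others. Depth limits Cacna1g (34 to 169 counts) and Cacng3 (9 to 33 counts).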
